A study of Mus musculus with 12 samples.

Results

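The genes described here encode the proteins of the mitochondrial ribosome and were followed in the renal cortex of mice with and without acute kidney injury (AKI) and with and without the glucocorticoid receptor (GR) in their tubules. Members were the genes whose probe set carries exactly 1 gene symbol and whose symbol begins with Mrpl or Mrps followed by a digit. For genes on more than 1 probe set, the one with the highest mean over the 12 arrays was used. The rule found 77 of the 19938 genes measured, on 85 of the 35556 probe sets of the arrays, with 48 Mrpl and 29 Mrps symbols. By their known place, 50 members belong to the large subunit, among them the misleadingly named Mrps18a and Mrps30, and 26 to the small subunit. The remaining member, Mrps36, has been assigned in yeast and human cells to the 2-oxoglutarate dehydrogenase complex and not to the ribosome. Mrpl53 lies on a probe set with several symbols and was therefore not a member.

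Total RNA was taken from dissected renal cortex, amplified, biotin-labelled and hybridised to Affymetrix arrays, with 3 arrays in each of 4 groups. The first group was GR-deficient (Pax8-Cre;nr3c1 flox/flox) with AKI, collected 24 h after an intramuscular injection of glycerol, which damages muscle and releases myoglobin. The second was GR-deficient and healthy, from a separate cohort that received no injection. The third was control (nr3c1 flox/flox) with AKI, 24 h after the same injection, and the fourth was control and healthy, again without an injection. All 4 groups carry the floxed nr3c1 alleles, so the genotypes differ both in the receptor and in the presence of Cre, whose Pax8 promoter is active in renal tubular epithelium, and effects of the 2 cannot be told apart. Healthy mice were not sham-injected, and the labels give no strain, sex or age. The labels number the arrays within a group without saying whether each is a separate animal, so the p-values measure the spread between these samples.

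Mitochondria keep a small genome that encodes core subunits of the respiratory chain and the ATP synthase, the ribosomal RNAs and the transfer RNAs needed to translate them. Every protein of the mitochondrial ribosome is encoded in the nucleus, made in the cytosol and imported. Many of these proteins descend from bacterial ribosomal proteins, here 48 members, and others, here 28, were added during the evolution of mitochondria. Proximal tubule cells depend on oxidative phosphorylation to power sodium and solute transport and are the cells most exposed to filtered myoglobin.

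The values are the authors' log2 expression values. A difference of 1 on this scale is 2-fold, and a difference is given with its standard error from 1 limma fit of the 12 arrays. A gene counts as changed where the Benjamini-Hochberg adjusted p over all 19938 genes was under 0.05. The standard error of a member's difference between 2 groups ranged from 0.092 to 0.29, with a median of 0.11. All 77 members had a mean of at least 6 over the 12 arrays, against 69.9% of all genes, with means from 6.44 to 10.7. The deficiency was visible in Nr3c1, the gene of the receptor, which after AKI averaged 7.98 ± 0.12 in GR-deficient against 8.86 ± 0.037 in control mice (SD, n = 3 each). Without injury it averaged 8.17 ± 0.037 in GR-deficient against 9.55 ± 0.091 in control mice. Proximal tubule markers were high in every group, with means over 12 genes from 11.1 to 12.9. The first control AKI array had a narrower spread of gene values than the others (SD 1.88, against 1.96 to 2.06), and the first GR-deficient healthy array lay apart from the rest on the third principal component. Members whose calls were lost without either array are named with their values.

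**Figure D1:**
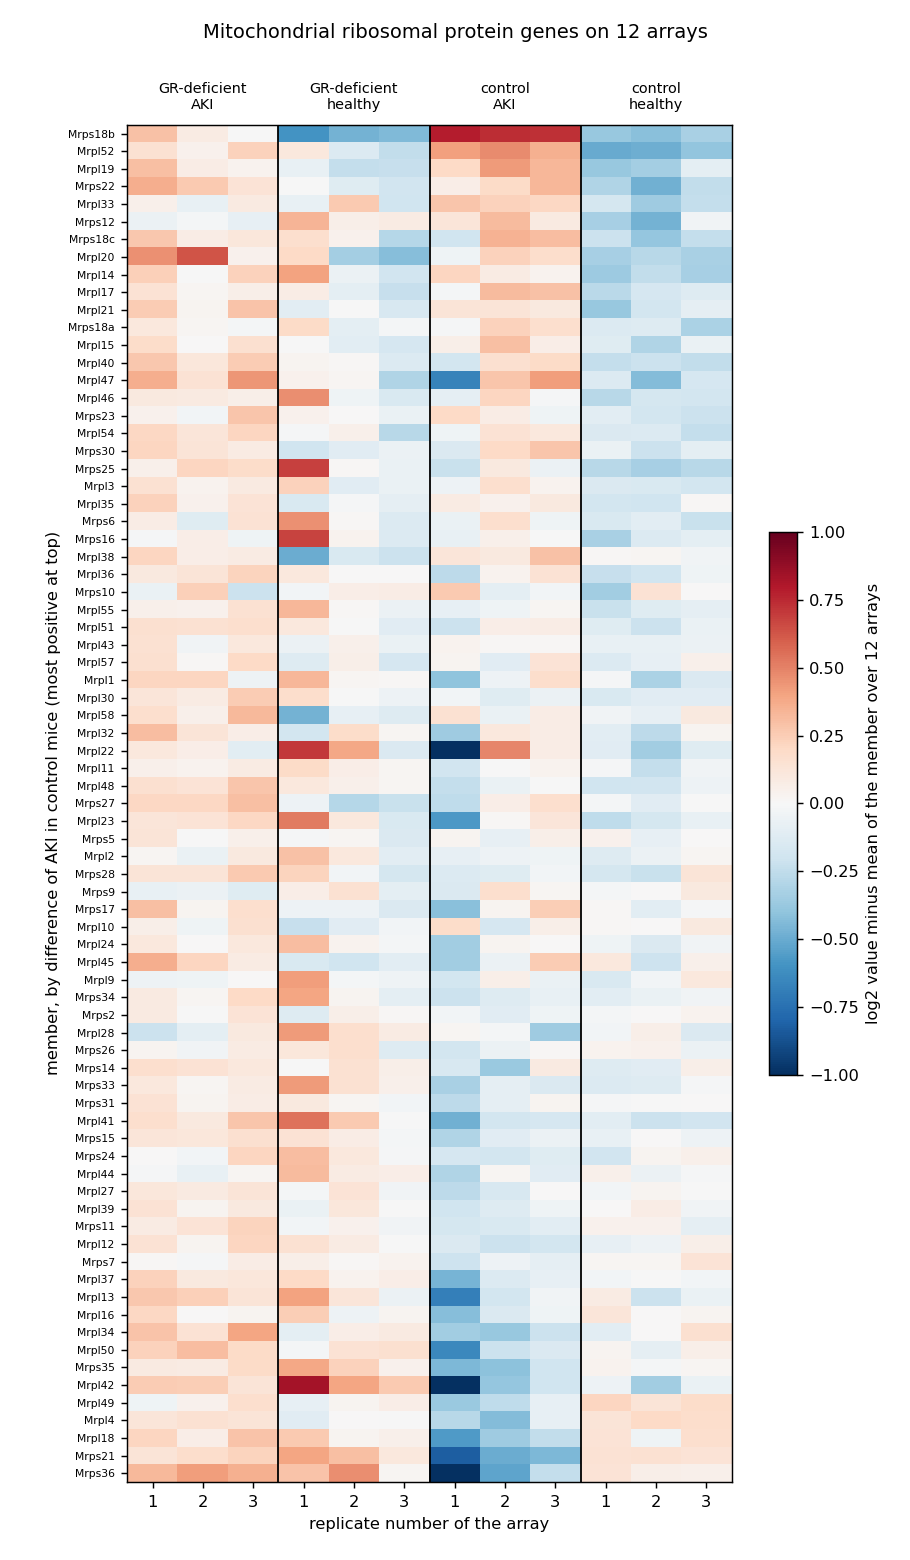
Each row is 1 of the 77 members and each column 1 array, grouped from left to right as GR-deficient AKI, GR-deficient healthy, control AKI and control healthy. Colour gives the log2 value minus the mean of that member over 12 arrays, capped at 1 in either direction. Rows are ordered by the difference between control AKI and control healthy, from Mrps18b (1.12) at the top to Mrps36 (-0.78) at the bottom. The first control AKI array is darkest blue for Mrps36, Mrpl42 and Mrpl22.

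In control mice, AKI moved members in both directions. 12 of the 77 members rose and 7 fell, while 13.6% of all genes rose and 15.1% fell. The members' share, 19 of 77 or 24.7%, lies below the 28.7% of all genes that changed. With the fit limited to genes with a mean of at least 6, 21 of 77 members and 5881 of 13940 genes were called. The median difference of the members was 0.039, against 0.0013 for all genes, and 41 members had a positive and 36 a negative difference. Only Mrps18b changed by more than 2-fold. Of the 50 large-subunit members 8 rose and 4 fell, and of the 26 small-subunit members 4 rose and 2 fell. Among members with a bacterial counterpart 10 of 48 rose and 4 fell, and among those without one 2 of 28 rose and 2 fell. The count depended on single arrays. It was 10 (5 higher, 5 lower) without the second control AKI array, and 11 (5 higher, 6 lower) without the first or without the second control healthy array. The calls over all genes also dropped there, from 5715 to 4746, 4651 and 4847 in this order. Without the first control AKI array 15 members were higher and 5 lower, and without the third 7 were higher and 9 lower. Over all genes, 2896 were higher and 3112 lower without the first, and 2446 higher and 3037 lower without the third. The calls that held under all 20 alternatives were 5 higher (Mrps18b, Mrpl52, Mrpl19, Mrps22 and Mrpl33) and 5 lower (Mrps36, Mrps21, Mrpl18, Mrpl4 and Mrpl49).

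Cell type markers moved in the same comparisons. All 12 proximal tubule markers fell with AKI in control mice, with a median of -1.62, and their mean level was 11.1 to 11.5 in control mice with AKI against 12.9 in each healthy control array. In GR-deficient mice 2 of the 12 fell, and 6 had an unadjusted p under 0.05, with means of 12.3 to 12.5 with AKI against 12.4 to 12.8 in healthy mice. Of 10 markers of the loop of Henle, distal tubule and collecting duct, 7 fell with AKI in control mice and 3 in GR-deficient mice. Of 6 neutrophil markers 5 rose with AKI in control mice and none in GR-deficient mice, where 3 had an unadjusted p under 0.05. The neutrophil mean was 5.33 to 5.67 in GR-deficient mice with AKI against 5.14 to 5.32 in healthy GR-deficient mice, and 6.15 to 6.65 in control mice with AKI against 4.96 to 5.34 in healthy control mice. Between the genotypes after AKI, 11 of the 12 proximal tubule markers were higher and 5 of the 6 neutrophil markers lower in GR-deficient mice. None of the 5 lymphocyte markers passed the limma test in any comparison, and 3 had an unadjusted p under 0.05 with AKI in control mice. Of the other marker lists, with AKI in control mice, 3 of 5 fibroblast and mural cell genes rose and 1 fell, 3 of 6 endothelial genes rose and 2 fell, and 1 of 6 macrophage and 1 of 4 podocyte genes moved each way. Also, 1 of 5 skeletal muscle genes fell, 1 of 4 adrenal genes rose, and none of 3 adipocyte genes passed the limma test or had an unadjusted p under 0.05. The skeletal muscle gene was Pvalb (-2.03), which is also counted among the markers of the loop, distal tubule and collecting duct. In GR-deficient mice 2 of 5 fibroblast and mural cell genes and 1 of 6 macrophage genes rose, and 1 of 5 skeletal muscle genes fell. In bulk tissue fewer cells of a type and less RNA per cell cannot be told apart, and the part of these shifts in the members' differences was not tested.

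Mrps18b, a small-subunit protein and 1 of 3 mammalian relatives of bacterial S18, rose most. Its log2 values were 10.85, 10.80 and 10.80 in control mice with AKI, against 9.68, 9.65 and 9.74 in healthy control mice. The groups lay far apart, and the difference was 1.12 ± 0.10 (adjusted p = 1.09e-06). Mrpl52, a large-subunit protein with no bacterial counterpart, measured 10.25, 10.31 and 10.20 in control mice with AKI, against 9.34, 9.35 and 9.44 in healthy control mice. These groups did not overlap either, with a difference of 0.88 ± 0.11 (adjusted p = 1.98e-05). Mrpl19, the counterpart of bacterial L19 in the large subunit, had values of 8.35, 8.58 and 8.48 in control mice with AKI, against 7.78, 7.81 and 8.05 in healthy control mice. All 3 injured values exceeded the 3 healthy ones, by 0.59 ± 0.11 (adjusted p = 0.00106). Mrps22, a mitochondria-specific small-subunit protein whose human gene is mutated in an inherited mitochondrial disease, stood at 9.40, 9.52 and 9.66 in control mice with AKI, against 9.02, 8.85 and 9.08 in healthy control mice. It too was higher on every injured array, by 0.54 ± 0.11 (adjusted p = 0.00156). Mrpl33, the counterpart of bacterial L33, had 7.59, 7.54 and 7.52 in control mice with AKI, against 7.14, 6.96 and 7.07 in healthy control mice. The difference was 0.50 ± 0.12 (adjusted p = 0.00505), with no overlap.

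The other 7 members that rose did so by 0.31 to 0.45, and each lost its call without at least 3 of the 12 arrays left out in turn. Mrps12, the counterpart of bacterial S12 at the decoding centre, rose by 0.45 ± 0.13 (adjusted p = 0.0124), and had 0.36 (adjusted p = 0.0737) without the second control healthy array. Among the 3 relatives of bacterial S18, Mrps18c of the small subunit rose by 0.43 ± 0.15 (adjusted p = 0.044) and Mrps18a, which sits in the large subunit, by 0.32 ± 0.11 (adjusted p = 0.0407). Without the second control AKI array Mrps18c had 0.34 (adjusted p = 0.184), and without the third control healthy array Mrps18a had 0.26 (adjusted p = 0.173). The large-subunit proteins Mrpl14, Mrpl17, Mrpl21 and Mrpl15, all with bacterial counterparts, differed by 0.42 ± 0.14, 0.39 ± 0.12, 0.34 ± 0.11 and 0.31 ± 0.11. Their highest adjusted p with 1 array left out ran from 0.0925 for Mrpl17 to 0.214 for Mrpl15, both without the second control AKI array. Without the first control AKI array Mrpl14 had 0.37 (adjusted p = 0.0802).

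Mrps36, the dehydrogenase-associated protein, fell furthest. Its values were 6.80, 7.60 and 7.89 in control mice with AKI, against 8.27, 8.19 and 8.18 in healthy control mice. All injured values lay below all healthy ones but were spread over more than 1 unit, and the difference of -0.78 ± 0.21 (adjusted p = 0.00911) shrank to -0.47 without the first control AKI array, with the call kept. A second Mrps36 probe set gave -0.86. RefSeq lists 3 pseudogenes named after Mrps36 and 1 each after Mrpl23, Mrpl27 and Mrpl48, and whether the probes of these 4 members also bind transcripts of such copies was not analysed here. Mrps21, the counterpart of bacterial S21, had values of 9.59, 9.92 and 9.97 in control mice with AKI, against 10.56, 10.57 and 10.55 in healthy control mice. The healthy values were nearly identical and every injured value was lower, with a difference of -0.74 ± 0.12 (adjusted p = 0.000175). Mrpl18, the counterpart of bacterial L18, which binds a small ribosomal RNA in bacteria, measured 9.40, 9.61 and 9.72 in control mice with AKI, against 10.10, 9.92 and 10.14 in healthy control mice. It was lower on each injured array, with a difference of -0.48 ± 0.12 (adjusted p = 0.00605).

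Mrpl4, whose bacterial counterpart lines the exit tunnel of the nascent protein, had 9.26, 9.11 and 9.46 in control mice with AKI, against 9.67, 9.74 and 9.72 in healthy control mice. The groups did not overlap, and the difference was -0.43 ± 0.10 (adjusted p = 0.00464). Mrpl49, a large-subunit protein without a bacterial counterpart, measured 8.75, 8.86 and 9.03 in control mice with AKI, against 9.33, 9.24 and 9.30 in healthy control mice. Every injured value was lower, with a difference of -0.41 ± 0.10 (adjusted p = 0.00717). Mrps35, a mitochondria-specific small-subunit protein, and Mrpl34, the counterpart of bacterial L34, differed by -0.36 ± 0.11 (adjusted p = 0.0203) and -0.33 ± 0.11 (adjusted p = 0.0347). Each lost its call without any 1 of 4 arrays. Without the first control AKI array Mrps35 had -0.32 (adjusted p = 0.0511) and Mrpl34 -0.31 (adjusted p = 0.0603). Mrps35 had -0.33 (adjusted p = 0.0752) without the second control AKI array, and Mrpl34 had -0.26 (adjusted p = 0.164) without the third control healthy array.

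In GR-deficient mice, AKI changed 2 of the 77 members, and both rose, against 3.29% of all genes that rose and 1.35% that fell. At an unadjusted p under 0.05, 16 members (20.8%) and 3662 of all genes (18.4%) differed. The median difference was 0.076, against -0.026 for all genes, and 67.5% of the members (52) and 44.5% of all genes had a positive difference. Mrps18b had 10.36, 10.15 and 10.06 in GR-deficient mice with AKI, against 9.46, 9.59 and 9.62 in healthy GR-deficient mice. The injured values were all higher, by 0.63 ± 0.10 (adjusted p = 0.00332), and the call held under all 20 alternatives. Mrpl38, a mitochondria-specific large-subunit protein, had 10.02, 9.88 and 9.89 with AKI, against 9.31, 9.66 and 9.60 in healthy GR-deficient mice. It differed by 0.41 ± 0.11 (adjusted p = 0.0494), but kept its call without only 2 of the 12 arrays and had 0.36 (adjusted p = 0.233) without the first GR-deficient AKI array. Without the first GR-deficient healthy array it had 0.30 (adjusted p = 0.14). Across the 77 members the AKI differences of the genotypes, which share no arrays, correlated with a Pearson r of 0.41 and a Spearman rho of 0.37, against 0.55 and 0.38 across all genes. Genes are not independent replicates, and all points share 1 normalisation. The standard deviation of the members' differences was 0.19 in GR-deficient mice and 0.31 in control mice, against 0.26 and 0.54 for all genes.

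**Figure D2:**
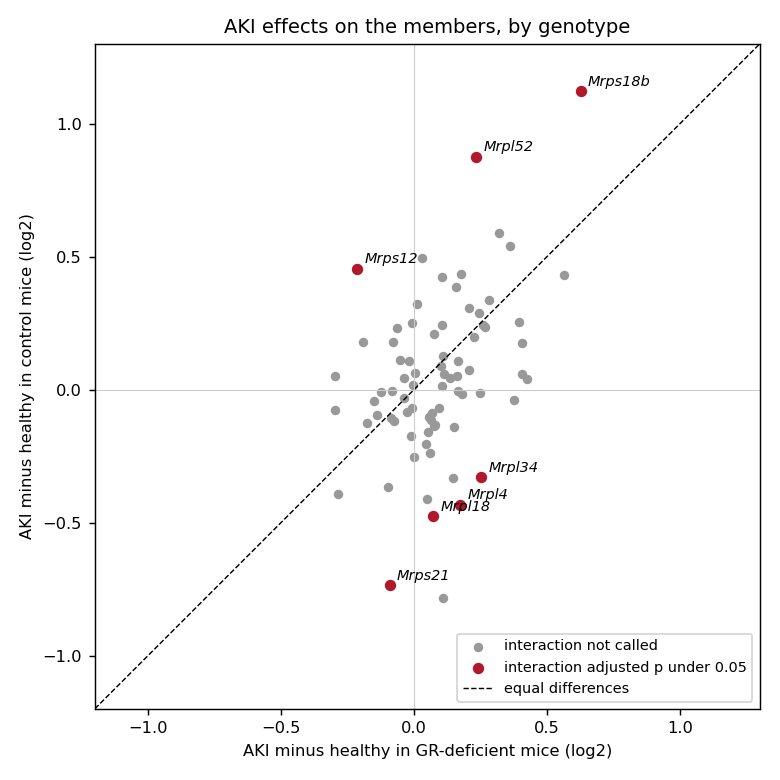
Each point is 1 of the 77 members, with the difference between AKI and healthy in GR-deficient mice on the horizontal axis and the same difference in control mice on the vertical axis, both in log2 units. The 7 named members in red had an interaction with an adjusted p under 0.05. Mrps18b, Mrpl52 and Mrps12 lie above the dashed line of equal differences, and Mrps21, Mrpl18, Mrpl4 and Mrpl34 below it.

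The test of whether the AKI response differed between the genotypes called 7 of the 77 members (9.09%), against 11.5% of all genes. The interaction, the AKI difference in GR-deficient mice minus that in control mice, was positive for 4 (7.39% of all genes) and negative for 3 (4.06%). The median interaction of the members was 0.042, against -0.034 for all genes. It was largest among the called members for Mrps12, whose 12 values were 8.17, 8.21 and 8.15 in GR-deficient AKI against 8.57, 8.29 and 8.31 in GR-deficient healthy samples, and 8.35, 8.55 and 8.32 in control mice with AKI against 7.90, 7.76 and 8.20 in healthy control mice. Injured values lay below healthy ones in GR-deficient mice and above them in control mice, and the interaction was -0.67 ± 0.18 (adjusted p = 0.0241). The difference within GR-deficient mice alone did not pass the test, at -0.21 ± 0.13. Mrpl52 measured 9.996, 9.88 and 10.07 in GR-deficient AKI against 9.95, 9.71 and 9.59 in GR-deficient healthy samples, and 10.25, 10.31 and 10.20 in control mice with AKI against 9.34, 9.35 and 9.44 in healthy control mice. The control groups lay far apart while the GR-deficient groups overlapped, with an AKI difference of 0.23 ± 0.11 in GR-deficient mice and an interaction of -0.64 ± 0.15 (adjusted p = 0.0136). For Mrps18b, given above, AKI differences of 0.63 ± 0.10 in GR-deficient mice and 1.12 ± 0.10 in control mice gave an interaction of -0.50 ± 0.14 (adjusted p = 0.0371).

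The 4 positive interactions belonged to members that fell with AKI in control mice. The interaction subtracts the control difference, so a fall in control mice raises it by definition, and the match is no separate result. Mrps21 had 10.55, 10.59 and 10.64 in GR-deficient AKI against 10.81, 10.72 and 10.53 in GR-deficient healthy samples, and 9.59, 9.92 and 9.97 in control mice with AKI against 10.56, 10.57 and 10.55 in healthy control mice. The 3 control AKI values were the lowest of all 12, and the interaction was 0.64 ± 0.16 (adjusted p = 0.019). Mrpl4 measured 9.66, 9.69 and 9.67 in GR-deficient AKI against 9.42, 9.54 and 9.54 in GR-deficient healthy samples, and 9.26, 9.11 and 9.46 in control mice with AKI against 9.67, 9.74 and 9.72 in healthy control mice. In GR-deficient mice the injured values were the higher ones, without passing the test (0.17 ± 0.10), and the interaction was 0.61 ± 0.15 (adjusted p = 0.0139). Mrpl34 had 9.66, 9.53 and 9.77 in GR-deficient AKI against 9.28, 9.44 and 9.47 in GR-deficient healthy samples, and 9.03, 9.004 and 9.17 in control mice with AKI against 9.27, 9.38 and 9.54 in healthy control mice. Again the control AKI values were below all others, with an interaction of 0.58 ± 0.15 (adjusted p = 0.024). Mrpl18 stood at 10.18, 10.03 and 10.25 in GR-deficient mice with AKI and 10.23, 9.99 and 10.01 in healthy GR-deficient mice, beside the control values given above. Its interaction of 0.55 ± 0.17 (adjusted p = 0.0458) was closest to the threshold. Of the 7 interactions, those of Mrpl52 and Mrpl4 held under all 20 alternatives. That of Mrps21 was lost without the third GR-deficient AKI array (0.62, adjusted p = 0.0505). The others were lost without 4 to 9 of the 12 arrays: Mrpl34 had 0.51 (adjusted p = 0.0735) and Mrpl18 0.51 (adjusted p = 0.115) without the third control healthy array. Mrps12 had -0.60 (adjusted p = 0.0695) without the second control AKI array, and Mrps18b had -0.43 (adjusted p = 0.104) without the third GR-deficient AKI array. Without the first control AKI array Mrpl18 had 0.46 (adjusted p = 0.0738), and without the first GR-deficient healthy array Mrps12 had -0.58 (adjusted p = 0.0539). Without the third GR-deficient AKI array 2 members were called in all, while the calls over all genes dropped from 2283 to 1618.

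**Figure D3:**
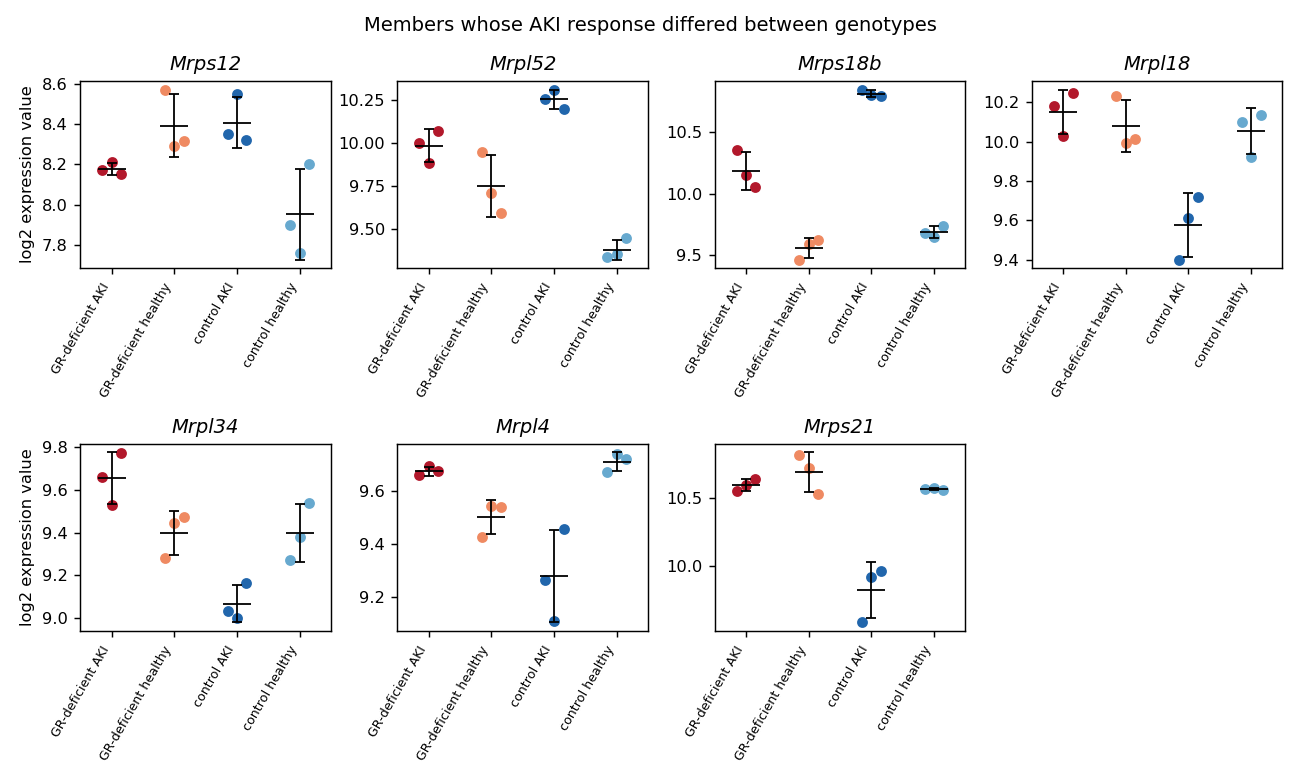
The 7 panels show the members with an interaction past the threshold, from the most negative to the most positive. The vertical axis is the log2 expression value, each dot is 1 array, and the bars give the mean and SD of the 3 arrays in each of the 4 groups. For Mrpl18, Mrpl34, Mrpl4 and Mrps21 the control AKI mean is the lowest of the 4 groups, and for Mrpl52, Mrps18b and Mrps12 it is the highest.

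The promoters of these members are shown because the 7 differ in the direction of their AKI response, and 6 of them have an entry in the RefSeq promoter table (mouse build GRCm38.p6), which holds none for Mrpl4. Each stretch is the 250 bases before the annotated start of transcription, 5′ to 3′ on the strand of the gene. Capitals mark matches, on either strand, to GCGCANGCG, recognised by the respiratory factor NRF1, or to CCGGAAG, recognised by ETS factors such as GABP. The first pair rose with AKI in control mice, Mrps18b at chr17:35916441-35916690, minus strand and Mrpl52 at chr14:54426659-54426908, plus strand.
Mrps18b: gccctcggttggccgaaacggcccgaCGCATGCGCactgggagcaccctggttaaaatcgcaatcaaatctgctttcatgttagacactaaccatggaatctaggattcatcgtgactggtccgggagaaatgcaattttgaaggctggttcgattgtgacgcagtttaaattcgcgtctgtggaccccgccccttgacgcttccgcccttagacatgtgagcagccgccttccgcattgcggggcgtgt
Mrpl52: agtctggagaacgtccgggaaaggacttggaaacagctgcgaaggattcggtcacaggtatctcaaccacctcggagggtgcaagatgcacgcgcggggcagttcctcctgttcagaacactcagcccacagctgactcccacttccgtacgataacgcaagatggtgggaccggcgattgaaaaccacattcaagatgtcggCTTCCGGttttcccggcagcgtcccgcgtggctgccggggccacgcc

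Mrps12, which also rose, lies at chr7:28741822-28742071, minus strand.
Mrps12: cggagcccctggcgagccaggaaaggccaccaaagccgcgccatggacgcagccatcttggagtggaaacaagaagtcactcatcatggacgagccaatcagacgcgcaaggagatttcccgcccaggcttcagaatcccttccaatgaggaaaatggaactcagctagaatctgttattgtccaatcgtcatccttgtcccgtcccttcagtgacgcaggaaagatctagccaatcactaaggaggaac

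The next 3 fell with AKI in control mice, Mrps21 at chr3:95871515-95871764, minus strand, Mrpl34 at chr8:71464676-71464925, plus strand and Mrpl18 at chr17:12916092-12916341, minus strand.
Mrps21: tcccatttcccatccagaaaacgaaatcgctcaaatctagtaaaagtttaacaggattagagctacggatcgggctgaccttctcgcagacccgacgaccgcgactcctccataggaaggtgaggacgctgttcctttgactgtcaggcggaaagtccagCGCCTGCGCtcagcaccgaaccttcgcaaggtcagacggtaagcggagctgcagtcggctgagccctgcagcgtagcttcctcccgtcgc
Mrpl34: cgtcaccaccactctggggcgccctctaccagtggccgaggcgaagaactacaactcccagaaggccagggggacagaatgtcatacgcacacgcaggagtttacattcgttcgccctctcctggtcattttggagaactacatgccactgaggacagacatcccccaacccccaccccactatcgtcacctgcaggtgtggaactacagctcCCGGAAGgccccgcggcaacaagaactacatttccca
Mrpl18: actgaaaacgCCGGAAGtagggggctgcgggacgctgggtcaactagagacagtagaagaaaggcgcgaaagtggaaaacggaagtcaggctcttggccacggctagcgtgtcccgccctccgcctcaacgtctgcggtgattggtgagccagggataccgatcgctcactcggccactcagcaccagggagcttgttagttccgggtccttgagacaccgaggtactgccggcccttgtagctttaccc

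An NRF1 match lay 224 bases before the start of Mrps18b, which rose, and 90 bases before that of Mrps21, which fell. An ETS match lay 47 bases before the start of Mrpl52, 37 before that of Mrpl34 and 240 before that of Mrpl18, and the stretch printed for Mrps12 holds neither. Beyond the printed stretches, an ETS match lay at base 1 after the start of Mrps12, 2 after that of Mrpl52, 18 after that of Mrps21 and 43 after that of Mrps18b, so the full window holds an ETS match in each of the 6. Over the full window, 250 bases before to 50 after the start, 68 of the 77 members had an entry. The NRF1 letters occurred in 16 of 68 members (23.5%, 95% Wilson interval 15.03 to 34.9%), against 10.5% of the 15614 genes measured here and 7.03% of all 27025 genes of the table. The ETS letters occurred in 25 (36.8%, 26.3 to 48.6%), against 13.6% of measured genes and 9.93% of all. AAGATGGCG, recognised by YY1, occurred in 8 (11.8%, 6.08 to 21.5%), against 2.29% and 1.64%. CACGTG, the E-box bound by factors such as MYC, occurred in 5 (7.35%, 3.18 to 16.1%), against 9.50% and 8.09%. TCAAGGTCA, recognised by the oestrogen-related receptors, was in none of the 68, and in 0.346% and 0.466%. The intervals cover counting error only, and a match is a description of sequence. The median G and C content was 58.5% in members and 57.3% in measured genes.

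**Figure D4:**
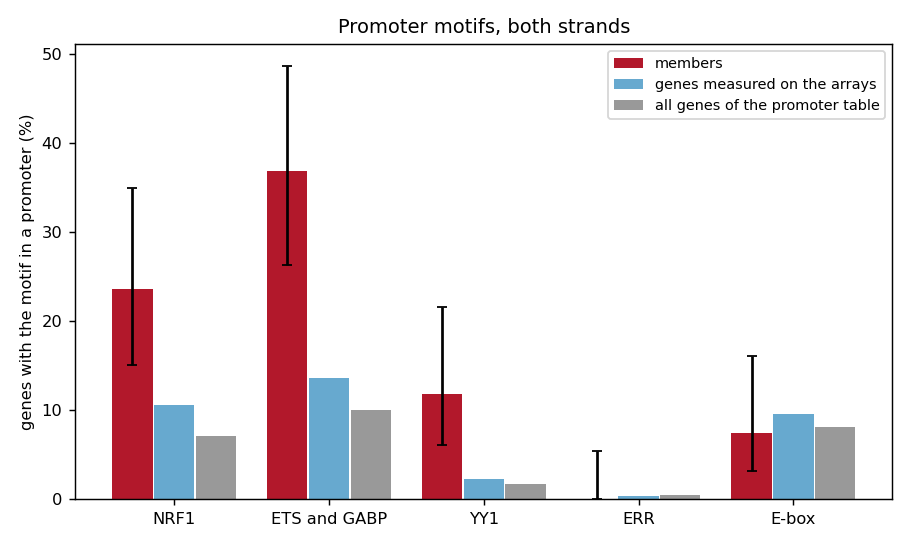
Bars give the percentage of genes with each motif, on either strand, within 250 bases before to 50 after the start, for 68 members, 15614 measured genes and 27025 genes of the table. Error bars are 95% Wilson intervals of the members. The members' bars for NRF1 (23.5%), ETS and GABP (36.8%) and YY1 (11.8%) stand above the others, and the members' interval for the E-box spans both other shares.

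Many members share a start region with a gene on the opposite strand. In 26 of 68 members (38.2%) another gene started within 1000 bases in the opposite direction, against 14.4% of measured genes. Of the 24 members whose partner was measured, 6 were called for AKI in control mice, as were 6 of the partners, against 28.7% of all genes. The pair of Mrpl46 and Mrps11 is counted from each side. No pair had both called, but with so few calls this does not tell whether partners move apart. Mrpl18 starts 238 bases from Tcp1, a subunit of the cytosolic chaperonin, which had a difference of 0.27 (adjusted p = 0.0653) beside -0.48 for Mrpl18. Mrpl49 starts 192 bases from Fau, which encodes a cytosolic ribosomal protein and had 0.27 (adjusted p = 0.0925) beside -0.41 for Mrpl49. Conversely, Mrpl47 starts 308 bases from Ndufb5, a complex I subunit that fell by 0.76 (adjusted p = 0.000418), while Mrpl47 itself had 0.25 (adjusted p = 0.491). The starts of Mrpl46 and Mrps11 lie 42 bases apart, and neither passed the test for AKI in control mice.

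After injury, 13 of the 77 members were higher in GR-deficient than in control mice, against 10% of all genes, and 1 was lower, against 7.34%. In all, 18.2% of the members and 17.4% of all genes were called. All genes include dim ones, while every member had a mean of at least 6. With the fit limited to genes with such a mean, 17 of 77 members and 3828 of 13940 genes were called. The median difference was 0.16, against -0.043 for all genes, and 65 of 77 members had a positive difference, called or not, against 8463 of 19938 genes (42.4%). In the large subunit 9 of 50 were higher in GR-deficient mice and none lower, and in the small subunit 3 of 26 were higher and 1 lower. The count was 9 without any 1 of the 3 GR-deficient AKI arrays and 18 without the third control AKI array. In the same fits the calls over all genes went from 3460 to 2808, 2450 and 2414, and to 3699. Without the first control AKI array 10 members were called and their median was 0.091. All genes then had 3162 calls, and their median moved from -0.043 to 0.018. That array held the lowest of the 12 values for 33 of the 77 members, and its members' median deviation from their 12-array means was -0.18, against -0.12 to 0.14 on the other 11 arrays. Lowest values were not counted over all genes, so the 33 cannot be read as particular to the members. The median deviation of all genes on that array was 0.0997, against -0.048 to 0.023 on the other arrays. Calls for Mrps36, Mrps21, Mrpl42, Mrpl34, Mrpl50, Mrpl18 and Mrps35, all higher, and for Mrps18b, lower, held under all 20 alternatives.

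Mrps36 had 8.46, 8.55 and 8.49 in GR-deficient mice with AKI, against 6.80, 7.60 and 7.89 in control mice with AKI. The genotypes were apart by 1.07 ± 0.21 (adjusted p = 0.00206), or 0.75 without the first control AKI array. Mrps21 differed by 0.77 ± 0.12 (adjusted p = 0.000325), Mrpl34 by 0.58 ± 0.11 (adjusted p = 0.00165) and Mrpl18 by 0.58 ± 0.12 (adjusted p = 0.00306), from the values above. Mrpl42, a mitochondria-specific large-subunit protein, measured 8.83, 8.82 and 8.70 in GR-deficient mice with AKI, against 7.51, 8.19 and 8.38 in control mice with AKI. All values in GR-deficient mice were higher, by 0.76 ± 0.19 (adjusted p = 0.0137), or by 0.50 without the first control AKI array, and the call held. Mrpl50, also mitochondria-specific, measured 10.06, 10.14 and 10.02 in GR-deficient mice with AKI, against 9.18, 9.61 and 9.68 in control mice with AKI. The difference was 0.58 ± 0.13 (adjusted p = 0.00477), without overlap. Mrps35 had 8.96, 8.95 and 9.06 in GR-deficient mice with AKI, against 8.42, 8.46 and 8.67 in control mice with AKI. It differed by 0.47 ± 0.11 (adjusted p = 0.007), again without overlap.

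Mrps18b was the member that was lower in GR-deficient than in control mice after AKI, with a difference of -0.63 ± 0.10 (adjusted p = 0.000591). The remaining 6 calls did not hold under every alternative. Mrpl4 had 0.40 ± 0.10 (adjusted p = 0.0141) and lost its call without the second control AKI array (0.31, adjusted p = 0.0791) or the second GR-deficient AKI array. Mrpl41, mitochondria-specific, had 0.46 ± 0.13 (adjusted p = 0.0285). Averaging its 2 probe sets gave 0.26 (adjusted p = 0.154), since the second probe set differed by 0.054. Mrpl13, the counterpart of bacterial L13, had 0.51 ± 0.16 (adjusted p = 0.0378), and 0.32 (adjusted p = 0.135) without the first control AKI array. Mrpl37, mitochondria-specific, had 0.37 ± 0.11 (adjusted p = 0.0319), and 0.33 (adjusted p = 0.118) without the first GR-deficient AKI array. Without the first control AKI array Mrpl37 had 0.25 (adjusted p = 0.0977), Mrpl41 0.36 (adjusted p = 0.0956) and Mrps11, described next, 0.27 (adjusted p = 0.0728). Mrpl12, which forms the stalk that recruits translation factors and in human cells also binds the mitochondrial RNA polymerase, had 0.31 ± 0.096 (adjusted p = 0.0371). Mrps11, the counterpart of bacterial S11, had 0.29 ± 0.092 (adjusted p = 0.0431). Without the third GR-deficient AKI array these had 0.27 (adjusted p = 0.143) and 0.25 (adjusted p = 0.154).

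Of the 7 members that fell with AKI in control mice, 6 were also called higher in GR-deficient than in control mice after AKI, all but Mrpl49 (0.29, adjusted p = 0.0735). Of the 12 that rose, Mrps18b alone was called lower. Both comparisons contain the same 3 control AKI arrays, so these are not independent observations. Genes called in both comparisons were not counted over all genes, so the 6 of 7 cannot be read as particular to the members.

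In healthy mice no member passed the limma test between the genotypes, against 0.0351% of all genes that were higher and 0.11% that were lower in GR-deficient mice. At an unadjusted p under 0.05, 12 of the 77 members (15.6%) and 2124 of all genes (10.7%) differed. The median difference was 0.12, against -0.0088 for all genes, and 80.5% of the members (62) and 47.7% of all genes had a positive difference. The largest was that of Mrpl42, with 9.40, 8.97 and 8.83 in healthy GR-deficient mice against 8.52, 8.23 and 8.51 in healthy control mice. It was 0.65 ± 0.19 (adjusted p = 0.236), and the first GR-deficient healthy array was the highest. Without that array the difference of the group means was 0.48. Members spread more widely on that array than on the other GR-deficient arrays (SD of their deviations 0.27, against 0.12 to 0.15). So did all genes (SD 0.30, against 0.18 to 0.22). Without that array the median of the members was 0.072. The lowest adjusted p was that of Mrps12, 0.44 ± 0.13 (adjusted p = 0.215).

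The rest of the mitochondrial translation system gave a mixed picture with AKI in control mice. Of 4 further ribosomal proteins with other symbols, Gadd45gip1 rose by 0.33 (adjusted p = 0.0283), or 0.26 (adjusted p = 0.113) without the third control AKI array, while Dap3, Ptcd3 and Chchd1 had -0.18, -0.42 and 0.44 without a call. Of 24 factors that assemble the mitochondrial ribosome, 2 rose and 2 fell, with Ddx28, an RNA helicase, at 0.54 (adjusted p = 0.00682) and Tfb1m, which methylates the small ribosomal RNA, at -0.63 (adjusted p = 0.0134), or -0.38 without the first control AKI array. Of 15 translation factors 1 rose and 7 fell, with a median of -0.28, among them the initiation factor Mtif3 (-0.67, adjusted p = 0.000177) and the recycling factor Gfm2 (-0.75, adjusted p = 0.00112). Of 19 aminoacyl-tRNA synthetases and related enzymes 1 rose and 4 fell. Of 15 genes of mitochondrial DNA replication and transcription 3 rose and 2 fell, and of 10 chaperones and proteases 1 moved each way. Among 10 regulators of mitochondrial biogenesis 3 rose and 4 fell. Myc rose by 3.07 and Pprc1, a coactivator of the PGC-1 family, by 1.24, while Ppargc1a, the founding member of that family, had -1.50 (adjusted p = 3.71e-06, 1.1e-05 and 1.98e-05 in this order). Nrf1, Gabpa and Yy1, whose motifs were counted above, had 0.18, -0.015 and 0.12 without a call.

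The products that mitochondrial ribosomes work beside, and the ribosomes of the cytosol, gave other counts. Of 82 nuclear-encoded respiratory chain and ATP synthase subunits, none rose and 61 fell with AKI in control mice, with a median of -0.49. Of 53 cytosolic ribosomal proteins, 40 rose and none fell, with a median of 0.46. In GR-deficient mice limma called 0 and 1 of these genes, with medians of -0.19 and 0.13, and at an unadjusted p under 0.05 24 of the 82 and 10 of the 53 differed, against 18.4% of all genes. Between the genotypes after AKI, 55 of the 82 respiratory chain and ATP synthase subunits were higher in GR-deficient mice and none lower, and 1 of the 53 cytosolic ribosomal proteins was lower. The difference between these lists and the 77 members was not tested.

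**Figure D5:**
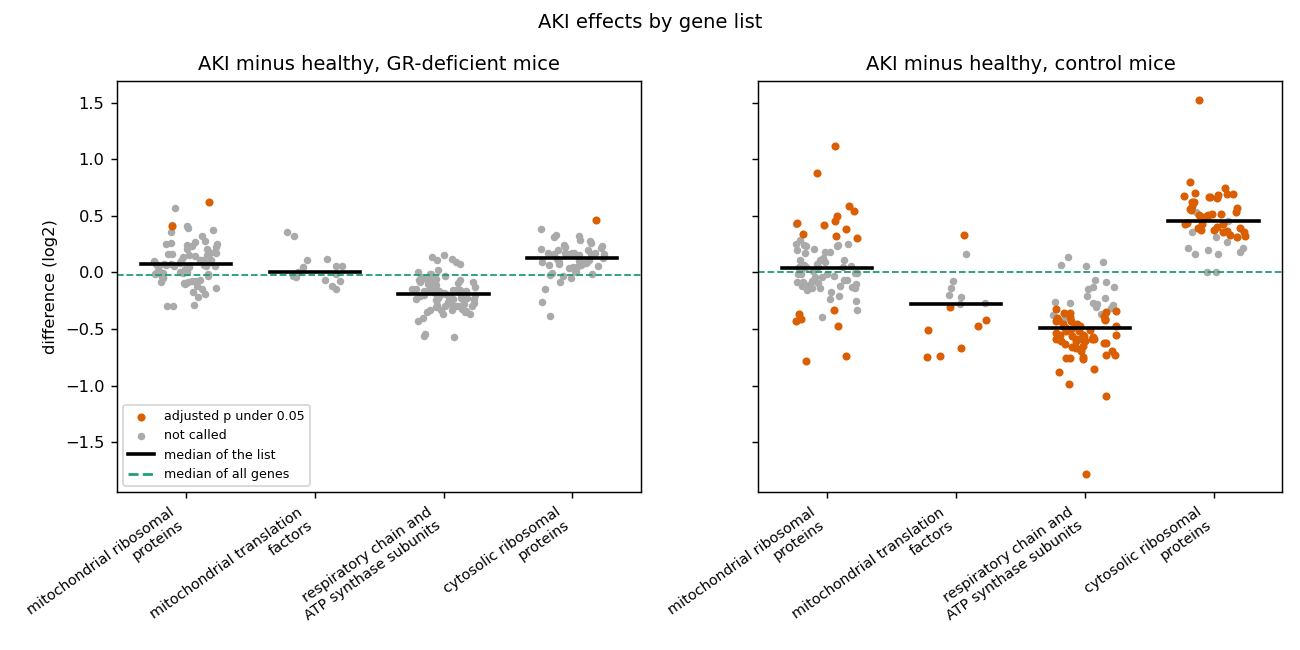
Each dot is 1 gene of a list, with the difference between AKI and healthy in log2 units on the vertical axis, in GR-deficient mice at left and control mice at right. Orange dots passed the threshold, black bars are medians of the lists, and the dashed line is the median of all genes. In control mice the medians are 0.039 for the members, -0.28 for translation factors, -0.49 for respiratory chain and ATP synthase subunits and 0.46 for cytosolic ribosomal proteins.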

How the data were processed

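Renal cortex RNA of 12 samples was amplified and hybridised to Affymetrix arrays, 3 per group. The authors deposited log2 expression values of 35556 probe sets, from 1.39 to 14.9. Per the submitters' processing notes RMA, affy and oligo were used, in versions not given in the sources used here, and the base of the logarithm, taken as 2, is not stated. Such values keep no counts and no true zeros, and the number of arrays limits the precision.

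GEO's platform annotation gave 1 symbol to 21789 probe sets, several to 1621 and none to 12146. Per gene the probe set with the highest mean was kept, which left 19938 genes. limma 3.58.1 in R 4.3.3 fitted 4 group means to the deposited values (8 residual and 6.26 prior degrees of freedom). 5 contrasts were tested, two-sided, with Benjamini-Hochberg adjustment over all genes. Data were simulated for AKI in control mice over 19938 genes, with normal noise of the same spread in every group. In them 100 genes changed by 1 log2 unit and 100 by 0.5, in either direction. Of these changes 89% and 45% were recovered, with 4 false calls. In the real contrast 5715 genes were called, which shifts the adjusted threshold, so these rates do not describe it.

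Members and lists were chosen with earlier results of these data known. Named by rule were, per contrast, the 5 largest called differences in each direction (3 for the interaction), the Mrps18 paralogs, Mrpl12, ribosomal proteins with other symbols, the 3 smallest p-values of each further list and Nr3c1. Other called members, the divergent pairs, Mrpl47 and the regulators Nrf1, Gabpa and Yy1 were named after their values were seen. Alternatives were other normalizations, probe set rules, a filter on dim genes, array weights, a trended prior, the replicate number as a block, and each array left out in turn. Promoters came from RefSeq (GRCm38.p6), and motifs were counted on both strands.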

Additional observations from a re-analysis of the deposited data

Results flagged for a closer look

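The response to AKI differed between the genotypes for 7 members by the test of the difference itself, the AKI difference in GR-deficient mice minus that in control mice (limma, adjusted p over all genes). These are 9.09% of the members, below the 11.5% of all genes called. At an unadjusted p under 0.05 the shares were 16.9% of members and 23.8% of all genes. On the log2 scale it was -0.67 for Mrps12, -0.64 for Mrpl52 and -0.50 for Mrps18b. It was 0.64 for Mrps21, 0.61 for Mrpl4, 0.58 for Mrpl34 and 0.55 for Mrpl18. Mrps36 had a larger interaction of 0.90 ± 0.29 that did not pass (adjusted p = 0.0634). Groups of 3 arrays are too small to be searched for outlying samples.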

How the results depend on the processing

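Of 42 calls of single members, 21 held in all 20 alternatives and 0 turned direction. Members called for AKI in GR-deficient mice numbered 2, against 1 with quantile normalization, 1 over all probe sets, 5 among genes with a mean of at least 6, 9 with array weights and 1 with the replicate block, and 1 to 4 with an array left out. For AKI in control mice 19 became 35 with array weights (25 higher, 10 lower) and 10 to 20 with an array left out. For GR deficiency in AKI 14 became 30 with array weights, 9 with the replicate block and 9 to 18 with an array left out. For GR deficiency in healthy mice 0 became 2 with array weights and stayed 0 to 0 with an array left out. The 7 interactions became 3 over all probe sets, 15 with array weights and 2 to 10 with an array left out. The cause of these changes was not tested. Array weights also raised the calls over all genes, from 5715 to 9648 for AKI in control mice. Injury within GR-deficient mice went from 926 to 3196, the genotypes after injury from 3460 to 7000, and the interaction from 2283 to 4905. The replicate block lowered all-gene calls to 671 for injury within GR-deficient mice and to 3104 between injured genotypes. All-gene calls with an array left out ran from 4651 to 6188 for AKI in control mice. Between injured genotypes they ran from 2414 to 3906, and for the interaction from 1556 to 2696. For injury within GR-deficient mice, 1266 of 13940 genes with a mean of at least 6 were called. Quantile normalization raised the all-gene calls of that contrast from 926 to 1059, while the members called went from 2 to 1. The members' medians ranged, with an array left out, from 0.049 to 0.13 for AKI in GR-deficient mice, -0.021 to 0.082 for AKI in control mice, 0.091 to 0.22 for GR deficiency in AKI, 0.072 to 0.19 in healthy mice and -0.038 to 0.11 for the interaction. ETS letters on the gene's strand alone occurred in 20.6% of members, against 5.4% of all genes of the promoter table on that strand. Samples with the same replicate number did not deviate together (median correlation -0.019 over 18 pairs, 3 above 0.1), so the numbers give no pairing.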

Other observations

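Between the genotypes without injury, other lists had these values. Of the 53 cytosolic ribosomal proteins 44 had a positive difference between healthy GR-deficient and healthy control mice, with a median of 0.23, and of the 82 respiratory chain and ATP synthase subunits 61 did, with a median of 0.10. limma called none of either list, and 21 and 19 had an unadjusted p under 0.05, against 10.7% of all genes.

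Across the 5 comparisons 27 of the 77 members were called at least once and 50 never. The same count was not made over all genes, so these numbers do not set the members against other genes. Repeat probe sets did not always give the same value. For Mrpl47 the kept probe set had 0.25 and the second -0.089 with AKI in control mice, neither called.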
